A study of Mus musculus with 16 samples.

Results

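The response to paclitaxel of 4T1 tumors in the mammary fat pad was measured as the difference between 3 treated tumors (post_SC) and 3 untreated tumors (pre_SC), 6 of the 16 samples of the series. The genes described are those with a mean of at least 1 TPM (transcripts per 1000000 transcripts) over the 6 libraries, 13363 of the 17678 genes kept from the table of these tumors. 4T1 cells derive from a mammary carcinoma of BALB/c mice, lack hormone receptors and metastasise readily, and the hosts were female wild-type BALB/c mice, 6 weeks old at the start. For both groups, 400000 cells were placed in a right mammary fat pad (the fourth), tumors grew for 15 days, and collagenase, hyaluronidase and DNase were used to free the cells before poly(A) RNA was sequenced. The treated group received paclitaxel at 10 mg/kg into the peritoneum, on 5 occasions a week over 2 weeks, with PBS as the control. The labels call the tissue subcutaneous although the cells were implanted in the fat pad. They do not say whether the pre_SC tumors were taken before dosing or were PBS controls of the same age, so treatment and tumor age cannot be told apart. Nor do they tie each library to its own animal, so p-values here reflect the spread among these libraries, which may be technical.

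Paclitaxel binds beta tubulin and stabilises microtubules, which holds dividing cells in mitosis. Fast-growing carcinomas outrun their blood supply, and in poorly oxygenated regions the transcription factor HIF-1 raises genes of glucose uptake, glycolysis, angiogenesis and collagen modification. A fat pad tumor also holds macrophages, neutrophils, T cells, fibroblasts and vessels, and fragments of the surrounding fat, mammary gland and body wall muscle can be excised with it. In such bulk RNA, fewer cells of a type and less RNA per cell cannot be told apart.

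The marker genes matched a carcinoma with host stroma. Here and below, values are given per library in the order of the replicate numbers. Epcam, a surface protein of carcinoma epithelium, stood at 1091.2, 828 and 892 TPM untreated and 965, 751 and 975 TPM treated, and Krt18, a keratin of simple epithelia, at 1253.2, 1358.3 and 1114.1 TPM untreated and 1474.8, 1250.3 and 1554.8 TPM treated. Not all carcinoma markers were as level. Cdh1 (E-cadherin) stood at 327, 222 and 339 TPM untreated and 196, 190 and 215 TPM treated, without overlap. Cldn3 and Cldn7 also lay lower without overlap. Cldn4 lay higher, at 606, 706 and 484 TPM untreated and 716, 979 and 909 TPM treated. The groups of Krt8 and Krt19 overlapped, and none of these genes was called. The hepatocyte marker Alb reached at most 4.21 TPM. Summed over the 25 genes of the carcinoma epithelium list, the level was 8233, 9531 and 8252 TPM in the untreated and 9303, 8886 and 10728 TPM in the treated libraries, so the groups overlapped. Post_SC replicate 2 stood apart by skeletal muscle RNA. Its summed level over 38 muscle genes was 13834 TPM, against 312 to 765 TPM in the other libraries, and its adipocyte sum was 1049 TPM, against 190 and 177 TPM in the other treated and 221, 705 and 819 TPM in the untreated libraries. Acta1, the actin of skeletal muscle, stood at 61.7, 0.427 and 91.2 TPM untreated and 181, 3225.6 and 70.6 TPM treated. Counts of called genes are given with and without this library, and medians where it moves them by over 1.5 times. The part of other host cells in the results below was not tested unless a value is stated.

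**Figure D1:**
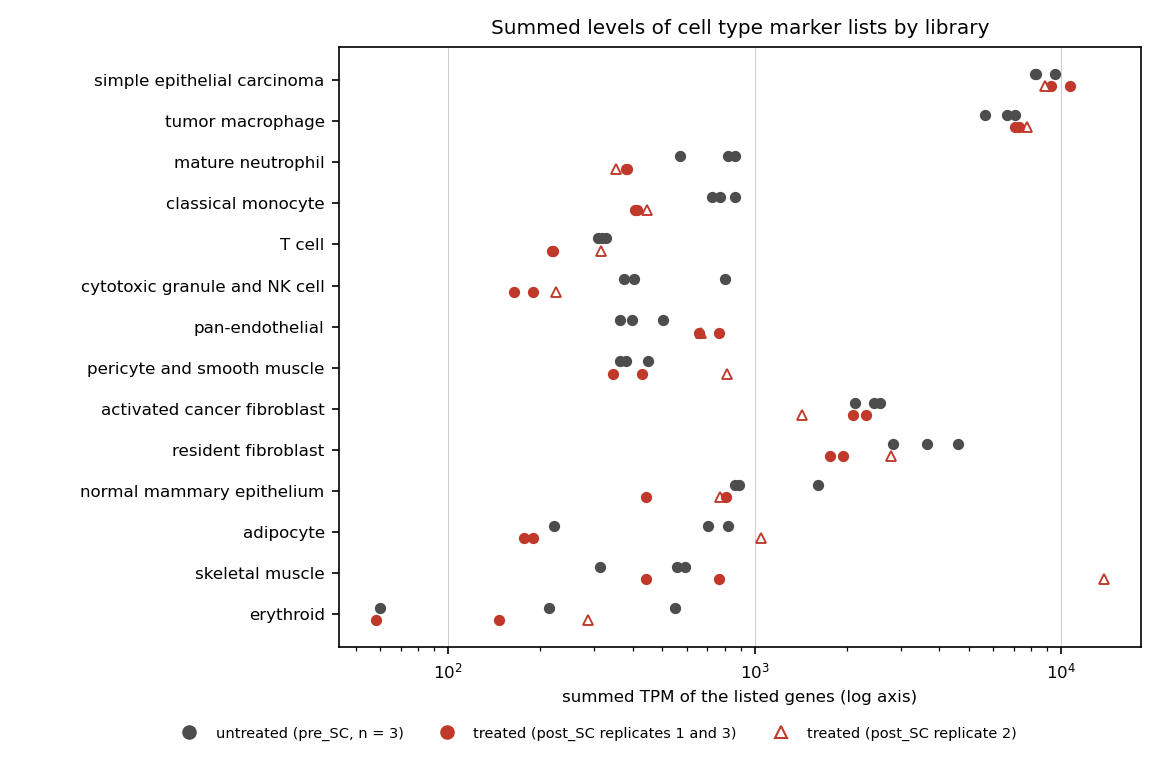
Summed TPM (log axis) of the genes of 14 cell type marker lists in each library, with untreated tumors in grey, treated tumors in red and post_SC replicate 2 as an open triangle. The muscle sum of post_SC replicate 2 (13834 TPM) lies far to the right of the others (312 to 765 TPM), the mature neutrophil and monocyte sums of the treated tumors lie left of all untreated ones, and the endothelial sums lie right of them.

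Limma called 927 of 13363 genes (6.94%) at a Benjamini-Hochberg adjusted p under 0.05, of which 356 (2.66%) rose and 571 (4.27%) fell. These percentages are the background against which the members of each gene list are read. Differences are given as log2(TPM + 1) of treated minus untreated tumors, a scale that understates changes of genes near 1 TPM, and the median over all genes was −0.03. All 3 treated libraries stood above all 3 untreated ones for 16.0% of genes and below them for 18.7%. Without post_SC replicate 2, 242 of 13224 genes (1.83%) rose and 530 (4.01%) fell, and 568 of the 927 calls were kept. The number called was 77, 191 and 91 without pre_SC replicates 1, 2 and 3 and 385, 772 and 712 without post_SC replicates 1, 2 and 3. For the lists below, counts with 1 library left out are given in this order, and a stable call is a gene whose groups did not overlap and that was called with all libraries and without any 1 of them (61 genes, 0.456%, of which 21 rose and 40 fell).

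**Figure D2:**
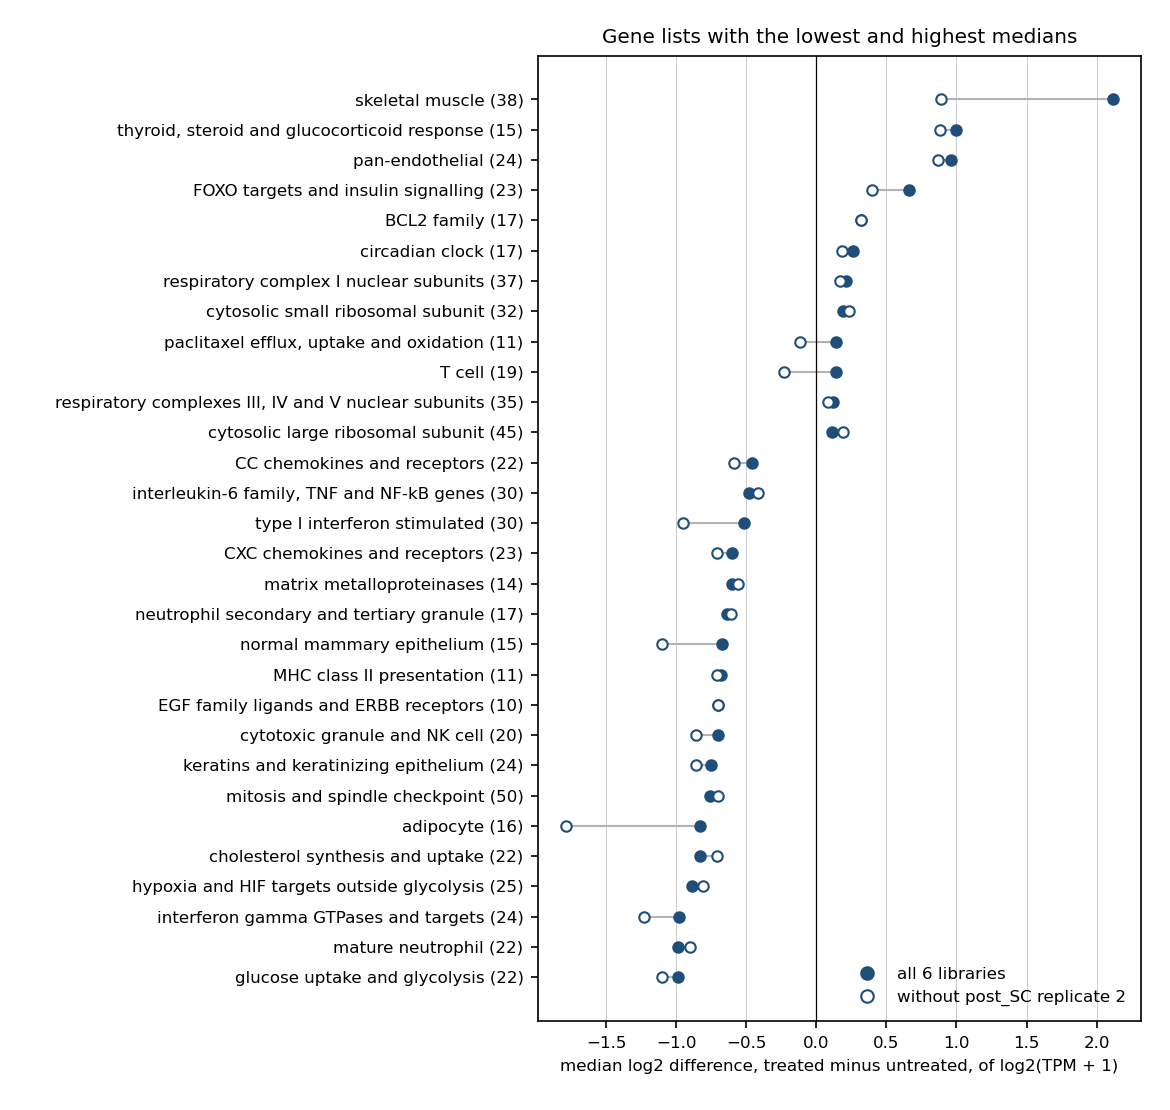
Median log2 difference (treated minus untreated) of the 18 lowest and 12 highest gene lists with at least 10 members tested, the number tested standing in brackets. Filled points use all 6 libraries and open points leave out post_SC replicate 2, which moved skeletal muscle from 2.12 to 0.89, adipocyte from −0.83 to −1.79 and type I interferon genes from −0.52 to −0.95, while glycolysis (−0.99 and −1.10) and endothelium (0.96 and 0.87) stayed close.

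Genes of glucose breakdown fell from phosphofructokinase to pyruvate kinase. Of 22 genes of glucose uptake and glycolysis, 14 fell and none rose, against 4.27% of all genes that fell, and the treated libraries stood below the untreated ones for 17 of them, against 18.7% of all genes. The list's median difference was −0.99, and −1.10 without post_SC replicate 2. The number called with 1 library left out was 7, 9, 8, 11, 14 and 13. Calls were stable for enzymes of early and late steps alike. Pfkl, the liver-type phosphofructokinase that commits glucose to breakdown, stood at 181, 206 and 180 TPM untreated and 49, 57.5 and 62.8 TPM treated, a difference of −1.73 ± 0.13 (SE, limma adjusted p = 0.00322). Its platelet-type relative Pfkp stood at 100, 97.3 and 109 TPM untreated and 39.2, 41.7 and 41.2 TPM treated, a difference of −1.31 ± 0.11 (SE, limma adjusted p = 0.00501). For both, the highest treated library lay far below the lowest untreated one.

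In the middle of the pathway, Tpi1, which interconverts the triose phosphates, stood at 584, 663 and 575 TPM untreated and 195, 261 and 248 TPM treated, a difference of −1.37 ± 0.13 (SE, limma adjusted p = 0.00641). Pgk1 (chromosome X, 106187100 to 106203699, GRCm38), which makes the first ATP of the pathway, stood at 1068.3, 1150.1 and 960 TPM untreated and 306, 366 and 460 TPM treated, a difference of −1.50 ± 0.16 (SE, limma adjusted p = 0.00689). Pgam1 (chromosome 19, 41911923 to 41918660), the phosphoglycerate mutase, stood at 719, 774 and 779 TPM untreated and 281, 289 and 304 TPM treated, a difference of −1.37 ± 0.09 (SE, limma adjusted p = 0.00203). Pkm (chromosome 9, 59656368 to 59679375), the pyruvate kinase of the last step, went from 1961.3, 2192.4 and 2061 TPM to 942, 948 and 1027.4 TPM, a difference of −1.09 ± 0.09 (SE, limma adjusted p = 0.00515). The groups of these enzymes did not overlap. Gapdh, the enzyme between Tpi1 and Pgk1 and a common reference gene, stood at 4982.9, 5606 and 4615.6 TPM untreated and 2543.2, 3408.5 and 3066.1 TPM treated, a difference of −0.76 ± 0.13 (SE, limma adjusted p = 0.0247). The call of Gapdh ended without any untreated library or post_SC 1 (adjusted p = 0.0513 to 0.0864).

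Aldoa, the aldolase of muscle and many other tissues, differed between the treated libraries. It stood at 1597.2, 1946.6 and 1894.9 TPM untreated and 514, 2339.5 and 658 TPM treated, so the muscle-containing library was above all untreated libraries and the other treated libraries were below them. With all libraries its difference was −0.96 ± 0.50 (SE, limma adjusted p = 0.254), and without post_SC replicate 2 it was −1.63 (adjusted p = 0.00878), within a range of 0.00878 to 0.525 with 1 library left out.

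**Figure D3:**
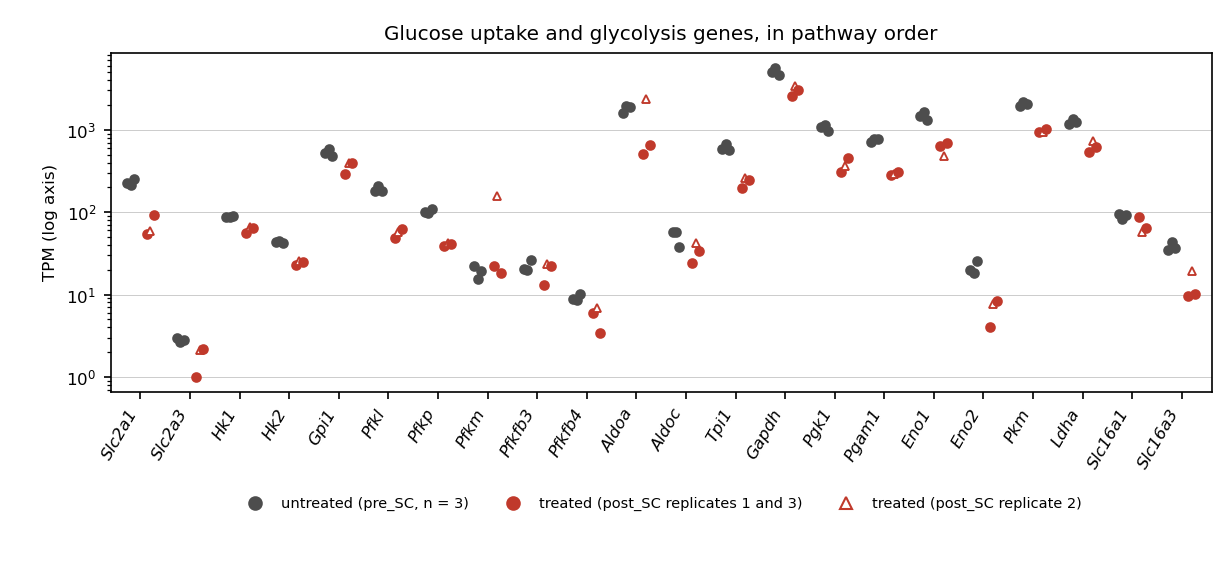
TPM (log axis) of the 22 genes of glucose uptake and glycolysis in each library, in pathway order from transporters to lactate export, with untreated tumors in grey, treated tumors in red and post_SC replicate 2 as an open triangle. Treated points lie below untreated ones for 17 of the genes, and in Aldoa the triangle (2339.5 TPM) lies above all other libraries.

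Genes that low oxygen induces outside glycolysis fell as well. Of 25 such genes, 11 fell and none rose, against 4.27% of all genes that fell. Their median difference was −0.89 (−0.81 without post_SC replicate 2), and 3, 5, 5, 8, 11 and 11 were called with 1 library left out. Car9 (chromosome 4, 43506966 to 43513729, GRCm38), the carbonic anhydrase that exports acid from hypoxic cells, stood at 125, 113 and 125 TPM untreated and 14.9, 6.66 and 21.1 TPM treated, a difference of −3.13 ± 0.35 (SE, limma adjusted p = 0.0085). P4ha1 (chromosome 10, 59323296 to 59373304), the prolyl hydroxylase that lets collagen fold, stood at 151, 149 and 136 TPM untreated and 32.3, 32.1 and 40.9 TPM treated, a difference of −2.03 ± 0.13 (SE, limma adjusted p = 0.00203). Ndrg1, a stress gene raised by low oxygen, stood at 584, 663 and 653 TPM untreated and 215, 206 and 299 TPM treated, a difference of −1.42 ± 0.15 (SE, limma adjusted p = 0.00806). None of these groups overlapped, and the 3 calls were stable. Ak4, a mitochondrial adenylate kinase that stands on none of the lists, was a stable fall too, at 13.2, 17.8 and 18.8 TPM untreated and 1.01, 2.67 and 2.8 TPM treated, a difference of −2.52 ± 0.29 (SE, limma adjusted p = 0.00949).

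Other members were less even. Vegfa, the main growth factor for vessels, stood at 67, 78.7 and 91 TPM untreated and 41.2, 38 and 30.7 TPM treated, a difference of −1.09 ± 0.16 (SE, limma adjusted p = 0.017). The call of Vegfa ended without any untreated library (adjusted p = 0.0537 to 0.0744). Ddit4, an inhibitor of mTORC1 that low oxygen and glucocorticoids both raise, stood at 245, 221 and 237 TPM untreated and 39.3, 145 and 228 TPM treated and was not called (−1.09 ± 0.55 SE, limma adjusted p = 0.242). Its post_SC replicate 3 lay within the untreated range, while replicate 1 was far below it. Anxa1, a calcium-binding membrane protein, stood at 1055.4, 708 and 1007.4 TPM untreated and 988, 1032.5 and 1253.5 TPM treated, with overlapping groups (0.25 ± 0.17 SE, limma adjusted p = 0.371).

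The promoters of these genes are shown because they carry the short core to which HIF-1 is known to bind. The letters ACGTG, searched on both strands from 250 bases before to 50 after the RefSeq start site, were found in 14 of the 21 glycolysis promoters with a sequence (66.7%) and in 12 of the 18 promoters of the other low-oxygen genes (66.7%). They were found in 19.6% of all 32851 mouse promoters and in 28.5% of the 10313 promoters of the genes tested. The core lies within the E-box CACGTG, so the counts include E-boxes. The stretches below are from RefSeq on GRCm38.p6, 5′ to 3′ in the direction of the gene, with the core in capitals, written CACGT where it lies on the other strand. They are Car9 at chr4:43506978-43507042 (forward strand), P4ha1 at chr10:59323250-59323314 (forward strand), Pgk1 at chrX:106186920-106187003 (forward strand), Pgam1 at chr19:41911727-41911791 (forward strand) and Pkm at chr9:59657122-59657269 (forward strand).
Car9: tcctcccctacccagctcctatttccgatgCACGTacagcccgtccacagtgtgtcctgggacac
P4ha1: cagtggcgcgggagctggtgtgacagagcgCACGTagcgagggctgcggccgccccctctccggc
Pgk1: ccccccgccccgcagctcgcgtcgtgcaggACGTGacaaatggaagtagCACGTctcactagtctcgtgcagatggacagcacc
Pgam1: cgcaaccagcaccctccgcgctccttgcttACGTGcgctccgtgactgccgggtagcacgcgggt
Pkm: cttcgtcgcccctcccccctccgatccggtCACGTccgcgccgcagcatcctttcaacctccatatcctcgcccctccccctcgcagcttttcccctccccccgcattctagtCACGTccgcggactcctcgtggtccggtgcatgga
The core of Car9 lies 18 bases and that of P4ha1 16 bases before the start site, the nearest upstream ones among these 5 genes. Pgk1 and Pkm hold 2 cores each. Of the 14 glycolysis genes that fell, 9 hold the core. A match of letters does not show that a factor binds there.

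Few genes of mitochondrial respiration were called, most of them rises, where 2.66% of all genes rose and 4.27% fell. Of 37 nuclear subunits of respiratory complex I, 2 rose and none fell, while 15 stood above the untreated range in all treated libraries, against 16.0% of all genes, with a median of 0.21. Ndufv2, a subunit of its NADH-binding arm, stood at 92.6, 96 and 95 TPM untreated and 136, 146 and 122 TPM treated, a difference of 0.50 ± 0.11 (SE, limma adjusted p = 0.0374). Ndufa5 stood at 56.8, 62.3 and 69.3 TPM untreated and 124, 147 and 87.3 TPM treated, a difference of 0.89 ± 0.20 (SE, limma adjusted p = 0.0403). The count of called subunits was 0, 0, 0, 0, 0 and 3 with 1 library left out. The call of Ndufv2 ended without any untreated library or post_SC 1 or 2 (adjusted p = 0.0721 to 0.138), and that of Ndufa5 without any untreated library or post_SC 1 or 2 (adjusted p = 0.0624 to 0.125). Of 35 subunits of complexes III, IV and V, 3 rose and 1 fell. Atp5l of the ATP synthase membrane part rose by 0.62 ± 0.10 and Atp5b, its catalytic beta subunit, differed by −0.41 ± 0.09 (limma adjusted p = 0.0189 and 0.0365), so members of a single complex moved in opposite directions. The call of Atp5l ended without any untreated library (adjusted p = 0.0576 to 0.0779), and that of Atp5b without any 1 library (adjusted p = 0.0551 to 0.132). None of the 21 genes of the tricarboxylic acid cycle was called, and their median was 0.02 (−0.04 to 0.05 with 1 library left out).

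Genes of cell division fell and none of those listed rose. Of 50 genes of mitosis and the spindle checkpoint, 24 fell and none rose, against 4.27% of all genes that fell. In 36 all treated libraries lay below the untreated range, against 18.7% of all genes, and 49 had a difference below 0. Their median was −0.76, and −0.70 without post_SC replicate 2. None of these calls was stable: 0, 3, 0, 24, 13 and 16 were called with 1 library left out. Bub1b, the checkpoint kinase that delays anaphase, stood at 29.7, 26.5 and 26.7 TPM untreated and 12.8, 10.3 and 8.91 TPM treated, a difference of −1.31 ± 0.17 (SE, limma adjusted p = 0.0118). Kif18b, a kinesin of spindle microtubules, stood at 19.1, 18.1 and 20.3 TPM untreated and 10.2, 8.17 and 8.62 TPM treated, a difference of −1.01 ± 0.15 (SE, limma adjusted p = 0.017). Ube2c, which tags cyclins for destruction, stood at 195, 209 and 253 TPM untreated and 156, 110 and 90.1 TPM treated, a difference of −0.91 ± 0.21 (SE, limma adjusted p = 0.0439). The groups did not overlap in any of the 3. The call of Bub1b ended without pre_SC 1 or 3 (adjusted p = 0.0557 and 0.0565), and that of Kif18b without any untreated library (adjusted p = 0.0577 to 0.083). The call of Ube2c ended without any untreated library or post_SC 2 or 3 (adjusted p = 0.0736 to 0.152). Zwint, a kinetochore protein, was the member with a difference above 0, at 137, 127 and 102 TPM untreated and 139, 138 and 135 TPM treated (0.18 ± 0.13 SE, limma adjusted p = 0.403).

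Top2a (chromosome 11, 98992943 to 99024189, GRCm38), the topoisomerase that untangles chromosomes, stood at 146, 106 and 147 TPM untreated and 73.9, 54.6 and 46.3 TPM treated, a difference of −1.19 ± 0.20 (SE, limma adjusted p = 0.0224). The call of Top2a ended without pre_SC 1 or 3 (adjusted p = 0.0849 and 0.0957). The proliferation antigen Mki67 stood at 59.4, 29.5 and 45.2 TPM untreated and 32.5, 27.9 and 26.7 TPM treated, where pre_SC replicate 2 (29.5 TPM) lay within the treated range, and it was not called (−0.56 ± 0.24 SE, limma adjusted p = 0.189). Among the promoters of the mitosis list, 30 of 42 (71.4%) hold the CCAAT box (letters CCAAT, both strands searched), against 37.4% of all promoters and 42.6% of those of the genes tested, and the same number, 30 of 42, hold the cell cycle homology region TTTGAA, against 17.9% and 14.6%. Each was found in 18 of the 19 promoters of members that fell. The promoter stretch of Top2a at chr11:99024213-99024439 (reverse strand), RefSeq on GRCm38.p6, is shown because it holds 6 CCAAT boxes, in capitals, of which those on the other strand read ATTGG.
Top2a: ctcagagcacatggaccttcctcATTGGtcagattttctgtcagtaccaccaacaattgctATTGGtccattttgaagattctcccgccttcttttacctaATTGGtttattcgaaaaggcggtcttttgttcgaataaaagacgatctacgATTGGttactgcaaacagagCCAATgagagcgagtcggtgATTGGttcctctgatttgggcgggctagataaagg
The 6 boxes lie between 227 and 58 bases before the start site.

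Of 31 genes of DNA replication and origin licensing, 6 fell and none rose, against 4.27% of all genes that fell. Their median was −0.43 (−0.26 without post_SC 3), and 0, 0, 0, 5, 3 and 4 were called with 1 library left out. Mcm5, a subunit of the replicative helicase, stood at 70.5, 70.4 and 65.6 TPM untreated and 46.6, 40.1 and 33.5 TPM treated, a difference of −0.78 ± 0.14 (SE, limma adjusted p = 0.0276), and Pold1, the catalytic subunit of DNA polymerase delta, fell, with a difference of −0.83 ± 0.12 (SE, limma adjusted p = 0.017). Pcna, the sliding clamp, stood at 263, 238 and 239 TPM untreated and 245, 179 and 136 TPM treated with overlapping groups (−0.44 ± 0.20 SE, limma adjusted p = 0.204). The call of Mcm5 ended without any untreated library (adjusted p = 0.0926 to 0.0999), and that of Pold1 without any untreated library (adjusted p = 0.0611 to 0.0829). Of 20 homologous repair and Fanconi genes, 1 fell (Rad54b, −0.91 ± 0.19, limma adjusted p = 0.0359), against 4.27% of all genes, with a median of −0.41. The call of Rad54b ended without any 1 library (adjusted p = 0.0588 to 0.149). The difference between the medians of mitosis and replication genes was not tested.

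Some genes of cell death and arrest were called, where 2.66% of all genes rose and 4.27% fell. Of 15 cyclin-dependent kinase inhibitors and G1 cyclins, 2 fell and none rose, Ccnd1 (−0.74 ± 0.15 SE, limma adjusted p = 0.0319) and Cdkn2d (−0.70 ± 0.15 SE, limma adjusted p = 0.0369). In this list 14 differences were below 0, with a median of −0.16 (−0.30 to −0.14 with 1 library left out). The number called with 1 library left out was 0, 0, 0, 1, 2 and 0. Cdkn1a, the p53-induced inhibitor of cyclin-dependent kinases, stood at 40, 48.1 and 51.3 TPM untreated and 25.5, 49.6 and 42.8 TPM treated, with overlapping groups (−0.28 ± 0.24 SE, limma adjusted p = 0.483), and Trp53, which encodes p53, at 83.2, 73.9 and 66.6 TPM untreated and 80.9, 73.5 and 63.3 TPM treated (−0.04 ± 0.14 SE, limma adjusted p = 0.874). Of 24 p53 target genes, 3 rose and 1 fell, with a median of 0.09 (0.02 without pre_SC 2 and 0.02 without post_SC 2) and 0, 0, 0, 3, 3 and 2 called with 1 library left out. Trp53inp1, a stress protein that promotes autophagy and death, stood at 7.76, 6.7 and 7.56 TPM untreated and 22, 30.9 and 58.2 TPM treated, a difference of 2.08 ± 0.32 (SE, limma adjusted p = 0.0173). Sesn1, a sestrin that restrains mTORC1, stood at 11.3, 9.12 and 10.8 TPM untreated and 18.5, 27.9 and 28.1 TPM treated, a difference of 1.16 ± 0.20 (SE, limma adjusted p = 0.0222). Of 17 genes of the BCL2 family, 3 rose and none fell, with 0, 0, 0, 1, 3 and 1 called with 1 library left out. Bcl2 itself, which blocks apoptosis, stood at 18.6, 17.2 and 13.7 TPM untreated and 42.4, 31.7 and 47.3 TPM treated (1.24 ± 0.19 SE, limma adjusted p = 0.0173), and Pmaip1 (Noxa), which promotes it, rose by 1.02 ± 0.20 (limma adjusted p = 0.0316). The call of Trp53inp1 ended without any untreated library (adjusted p = 0.0643 to 0.0727), and that of Sesn1 without any untreated library (adjusted p = 0.069 to 0.086). The call of Bcl2 ended without any untreated library or post_SC 1 (adjusted p = 0.0513 to 0.0744), and that of Pmaip1 without any untreated library or post_SC 1 or 3 (adjusted p = 0.0572 to 0.122).

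Among the tubulins, the drug's target family, Tubb5, the most abundant beta tubulin here, fell from 906, 993 and 871 TPM to 737, 636 and 621 TPM (−0.48 ± 0.11 SE, limma adjusted p = 0.0427). Tubb3, the neuronal isotype, stood at 1.19, 2.1 and 2.89 TPM untreated and 0.169, 0.113 and 0.0575 TPM treated, a difference of −1.42 ± 0.28 (SE, limma adjusted p = 0.0329) at levels near 1 TPM. The call of Tubb5 ended without any untreated library or post_SC 2 or 3 (adjusted p = 0.076 to 0.134), and that of Tubb3 without pre_SC 1 or post_SC 1 or 3 (adjusted p = 0.0619 to 0.0754). Without pre_SC 2 or 3 the mean of Tubb3 was under 1 TPM and it was not tested. These were the 2 calls among 9 beta and gamma tubulins, where 6.94% of all genes were called. None of 5 alpha tubulins was called, of which Tuba1b stood at 1073.6, 1227.9 and 994 TPM untreated and 1089.2, 838 and 727 TPM treated. The isotypes share long stretches of sequence, so their values are uncertain. Of 23 microtubule-binding genes, 2 rose, Mtus1 (1.46 ± 0.27) and Map1lc3a, also an autophagy gene (0.87 ± 0.19), with limma adjusted p = 0.0276 and 0.0379. The call of Mtus1 ended without any untreated library or post_SC 1 (adjusted p = 0.073 to 0.0923), and that of Map1lc3a without any untreated library or post_SC 2 or 3 (adjusted p = 0.0519 to 0.126).

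The paclitaxel exporter P-glycoprotein, encoded by Abcb1a and Abcb1b, was not called. Abcb1a stood at 1.35, 1.3 and 1.14 TPM untreated and 1.95, 2.17 and 1.86 TPM treated (0.40 ± 0.21 SE, limma adjusted p = 0.246) and Abcb1b at 9.85, 6.35 and 8.82 TPM untreated and 5.59, 5.31 and 6.65 TPM treated (−0.43 ± 0.21 SE, limma adjusted p = 0.218). Of 11 genes of paclitaxel export, uptake and oxidation, 1 rose, where 2.66% of all genes rose. This was Abcc4, an exporter of cyclic nucleotides and prostaglandins. It stood at 6.55, 9.2 and 6.28 TPM untreated and 21.9, 24.5 and 16.6 TPM treated (1.40 ± 0.21 SE, limma adjusted p = 0.017). The call of Abcc4 ended without pre_SC 1 or 3 or post_SC 1 (adjusted p = 0.0505 to 0.0744).

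Secreted matrix metalloproteinases fell by up to 4.00 log2 units. Mmp12, the elastase of macrophages, stood at 125, 198 and 451 TPM untreated and 14.6, 12.7 and 26.2 TPM treated, a difference of −3.64 ± 0.46 (SE, limma adjusted p = 0.0118), and this call was stable. Mmp13, a collagenase, stood at 1019.2, 169 and 1017.3 TPM untreated and 19.8, 28.6 and 68.4 TPM treated, a difference of −4.00 ± 0.74 (SE, limma adjusted p = 0.0276). Mmp3, a stromelysin that activates other metalloproteinases, stood at 477, 198 and 622 TPM untreated and 12, 35.1 and 50.2 TPM treated, a difference of −3.75 ± 0.57 (SE, limma adjusted p = 0.0173). The stromelysin Mmp10 stood at 265, 67.6 and 219 TPM untreated and 3.66, 9.98 and 20.2 TPM treated, a difference of −3.95 ± 0.65 (SE, limma adjusted p = 0.0202). In all 4 the groups did not overlap, although the untreated libraries differed among themselves and pre_SC replicate 2 was the lowest of them in Mmp3, Mmp10 and Mmp13. The call of Mmp13 ended without pre_SC 1 or 3 or post_SC 1 (adjusted p = 0.0746 to 0.0988), and that of Mmp3 without pre_SC 1 or 3 (adjusted p = 0.0678 and 0.0703). The call of Mmp10 ended without pre_SC 1 or 3 (adjusted p = 0.0736 and 0.0814). These were the 4 calls among 14 members, where 6.94% of all genes were called (1, 4, 2, 3, 4 and 4 with 1 library left out). Mmp9, the gelatinase of neutrophils and other cells, stood at 383, 421 and 119 TPM untreated and 189, 159 and 198 TPM treated, where pre_SC replicate 3 lay within the treated range (−0.56 ± 0.44 SE, limma adjusted p = 0.437), and the membrane-bound Mmp14 at 248, 249 and 235 TPM untreated and 272, 290 and 353 TPM treated (0.31 ± 0.12 SE, limma adjusted p = 0.149).

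The 4 genes lie in a single cluster on chromosome 9 and are shown with their promoters because each holds an AP-1 site, the element bound by Fos and Jun proteins. The letters TGANTCA, searched on both strands, were found in 4 of the 11 metalloproteinase promoters with a sequence, those of the 4 genes that fell, against 7.81% of all promoters and 6.92% of those of the genes tested. The stretches are from RefSeq on GRCm38.p6 with the site in capitals, Mmp12 at chr9:7347300-7347366 (forward strand), Mmp3 at chr9:7445746-7445812 (forward strand), Mmp10 at chr9:7502249-7502315 (forward strand) and Mmp13 at chr9:7272449-7272515 (forward strand).
Mmp12: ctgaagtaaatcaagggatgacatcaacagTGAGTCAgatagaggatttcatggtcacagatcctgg
Mmp3: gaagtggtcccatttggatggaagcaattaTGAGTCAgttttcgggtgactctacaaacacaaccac
Mmp10: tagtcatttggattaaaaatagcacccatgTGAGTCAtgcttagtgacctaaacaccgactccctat
Mmp13: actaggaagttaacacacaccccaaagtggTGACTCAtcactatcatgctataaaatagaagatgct
The sites begin 44, 46, 63 and 35 bases before the start sites of Mmp12, Mmp3, Mmp10 and Mmp13. Here too, a match of letters does not show that a factor binds there. Fosl1, the Fra-1 subunit of AP-1, was a stable fall, at 9.44, 8.19 and 14.6 TPM untreated and 1.76, 1.95 and 1.74 TPM treated (−2.02 ± 0.24 SE, limma adjusted p = 0.00991). Its part in the metalloproteinase values was not tested. The list of 26 immediate early genes held 2 falls and no rise, where 4.27% of all genes fell. That list had a median of 0.06 (−0.39 to 0.18 with 1 library left out). The other AP-1 subunits named here were not called: Junb stood at 446, 607 and 536 TPM untreated and 260, 519 and 513 TPM treated (−0.36 ± 0.27 SE, limma adjusted p = 0.422) and Jund at 216, 258 and 319 TPM untreated and 168, 239 and 334 TPM treated (−0.14 ± 0.25 SE, limma adjusted p = 0.757).

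Some collagen genes fell while the main chain was not called. Col1a1, the main fibrillar chain, stood at 690, 790 and 854 TPM untreated and 762, 536 and 664 TPM treated with overlapping groups (−0.26 ± 0.15 SE, limma adjusted p = 0.297). Col5a3, a minor chain of collagen V, was a stable fall at 41.7, 41.5 and 66.6 TPM untreated and 10.6, 7.32 and 10.6 TPM treated, a difference of −2.26 ± 0.23 (SE, limma adjusted p = 0.00661). Of 22 genes of fibrillar collagens and their assembly, 6 fell and none rose, against 4.27% of all genes that fell. Their median was −0.43, and 1, 2, 1, 3, 4 and 6 were called with 1 library left out. Among them were Plod2, a lysyl hydroxylase for collagen cross-links that also stands on the low-oxygen list (−1.51 ± 0.24 SE, limma adjusted p = 0.0185), and Col16a1 (−1.06 ± 0.17 SE, limma adjusted p = 0.0202). The call of Plod2 ended without any untreated library (adjusted p = 0.061 to 0.0744), and that of Col16a1 without any untreated library or post_SC 1 (adjusted p = 0.0526 to 0.0895). Fbln2, a linker of elastic fibres and basement membranes, was a stable fall, at 303, 307 and 346 TPM untreated and 70.5, 68.3 and 119 TPM treated (−1.93 ± 0.21 SE, limma adjusted p = 0.00806). Sfrp2, a secreted Wnt modulator of fibroblasts, was a stable fall too, at 26.5, 28.4 and 49.1 TPM untreated and 5.76, 5.28 and 7.78 TPM treated (−2.25 ± 0.26 SE, limma adjusted p = 0.00969).

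Some genes of the fibroblast lists were called, where 2.66% of all genes rose and 4.27% fell. Of 20 genes of activated cancer fibroblasts, 1 rose and 3 fell, with a median of −0.27 (−0.49 without post_SC 1 and −0.08 without post_SC 2), and of 19 resident fibroblast genes 3 fell, with a median of −0.39 (−0.59 without pre_SC 1, −0.75 without pre_SC 2 and −0.18 without pre_SC 3), and 0, 4, 0, 2, 5 and 2 and 2, 1, 1, 1, 3 and 1 were called with 1 library left out. Postn, which encodes periostin, stood at 187, 130 and 198 TPM untreated and 337, 217 and 344 TPM treated and was not called (0.79 ± 0.23 SE, limma adjusted p = 0.0767), and Tnc, which encodes tenascin C, stood at 304, 305 and 296 TPM untreated and 232, 93.7 and 134 TPM treated and was not called either (−1.07 ± 0.29 SE, limma adjusted p = 0.0666). Of 22 TGF-beta pathway genes, 0 rose and 3 fell, with a median of −0.10 (0.01 without pre_SC 1, −0.01 without post_SC 2 and −0.06 without post_SC 3) and 0, 1, 1, 2, 2 and 2 called with 1 library left out. Among them Tgfbi, a TGF-beta-induced matrix protein, stood at 272, 210 and 226 TPM untreated and 171, 157 and 126 TPM treated, a difference of −0.64 ± 0.15 (SE, limma adjusted p = 0.0487). The call of Tgfbi ended without any 1 library (adjusted p = 0.0671 to 0.144).

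Many endothelial genes rose. Of 24 pan-endothelial genes, 11 rose, against 2.66% of all genes, and 2 fell, with a median of 0.96 (0.87 without post_SC replicate 2). The treated libraries stood above the untreated ones for 16 members, against 16.0% of all genes, and the number called in either direction was 1, 8, 2, 3, 7 and 10 with 1 library left out. Emcn, the sialomucin of capillary and venous endothelium, was a stable rise, at 16.3, 21.7 and 16.3 TPM untreated and 57.3, 48.1 and 52.7 TPM treated (1.50 ± 0.16 SE, limma adjusted p = 0.00673). Cldn5, the tight junction claudin of vessels, stood at 5.84, 9.76 and 4.57 TPM untreated and 25, 24.3 and 36 TPM treated, a difference of 1.97 ± 0.28 (SE, limma adjusted p = 0.0158), and Clec14a, a lectin of tumor vessels, at 1.02, 1.4 and 1.46 TPM untreated and 8.73, 5.96 and 10.2 TPM treated, a difference of 2.00 ± 0.24 (SE, limma adjusted p = 0.0104). Eng, the TGF-beta co-receptor of proliferating endothelium, went down, at 130, 122 and 110 TPM untreated and 80.7, 82.2 and 86.4 TPM treated (−0.53 ± 0.11 SE, limma adjusted p = 0.0345). The call of Cldn5 ended without pre_SC 1 or 3 (adjusted p = 0.0557 and 0.0628), and that of Clec14a without pre_SC 1 (adjusted p = 0.0531). The call of Eng ended without any untreated library or post_SC 1 or 2 (adjusted p = 0.0607 to 0.115). Pecam1, a general junction marker, stood at 34, 51 and 47.6 TPM untreated and 83.4, 71.8 and 62.5 TPM treated without overlap but was not called (0.71 ± 0.18 SE, limma adjusted p = 0.0616), and Plvap of fenestrated vessels had overlapping groups (0.54 ± 0.21 SE, limma adjusted p = 0.153).

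Genes of vessel support were divided. Of 17 pericyte and smooth muscle genes, 4 rose and 2 fell, where 2.66% of all genes rose and 4.27% fell. Their median was −0.31 (−0.08 without pre_SC 2 and −0.13 without post_SC 2), and 0, 3, 1, 1, 3 and 4 were called with 1 library left out. Higd1b, a marker of pericytes, stood at 0.737, 1.79 and 0.539 TPM untreated and 9.57, 7.15 and 7.15 TPM treated (2.19 ± 0.28 SE, limma adjusted p = 0.0118), and Abcc9, the pericyte potassium channel regulator, at 1.62, 3.18 and 1.88 TPM untreated and 7.15, 8.66 and 5.86 TPM treated (1.37 ± 0.25 SE, limma adjusted p = 0.0271). Smtn, a protein of contractile smooth muscle, fell, at 133, 117 and 111 TPM untreated and 54.7, 78.8 and 77.9 TPM treated (−0.78 ± 0.17 SE, limma adjusted p = 0.0369). The call of Higd1b ended without pre_SC 1 (adjusted p = 0.0545), and that of Abcc9 without pre_SC 1 or 3 or post_SC 1 (adjusted p = 0.0726 to 0.109). The call of Smtn ended without any untreated library or post_SC 1 or 3 (adjusted p = 0.0512 to 0.122). Des, which skeletal muscle shares with pericytes, stood at 25.1, 3.16 and 27 TPM untreated and 37.7, 491 and 25.7 TPM treated and was highest in the library with muscle RNA. The lymphatic receptor Lyve1 stood at 2.38, 4.29 and 3.85 TPM untreated and 1.16, 5.62 and 3.24 TPM treated (−0.17 ± 0.41 SE, limma adjusted p = 0.817).

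None of the listed angiogenic ligands rose. Of 15 angiogenic ligands and tip cell genes, 3 fell and none rose, against 4.27% of all genes that fell. Their median was −0.21 (−0.35 without post_SC 2), and 0, 0, 0, 1, 2 and 2 were called with 1 library left out. Besides Vegfa, its relative Vegfb stood at 91, 87 and 105 TPM untreated and 50, 68.1 and 46.3 TPM treated, a difference of −0.79 ± 0.17 (SE, limma adjusted p = 0.0366). The call of Vegfb ended without any untreated library or post_SC 1 or 3 (adjusted p = 0.0681 to 0.138). Several of the largest stable rises were genes of vessel walls and stroma. Mgp, the matrix Gla protein that inhibits calcification, stood at 19.7, 25.1 and 18.6 TPM untreated and 95.9, 98 and 97.2 TPM treated, a difference of 2.16 ± 0.14 (SE, limma adjusted p = 0.00203). Sparcl1 (hevin), a matricellular protein of mature vessels, stood at 40, 52.5 and 48.9 TPM untreated and 188, 160 and 260 TPM treated (2.06 ± 0.19 SE, limma adjusted p = 0.00641). Tmem100, a membrane protein downstream of the endothelial receptor ALK1, stood at 1.09, 1.44 and 2.09 TPM untreated and 11.5, 17.7 and 10.3 TPM treated (2.46 ± 0.26 SE, limma adjusted p = 0.00689), and the angiopoietin-like Angptl1 at 0.41, 0 and 0.658 TPM untreated and 6.55, 7.11 and 8.79 TPM treated (2.67 ± 0.26 SE, limma adjusted p = 0.00641). In each of the 4 the lowest treated library was at least 3 times the highest untreated one.

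The other large stable rises were of secreted, hormonal and lipid-transport genes. Tff1, a trefoil peptide of mucosal surfaces, stood at 0, 0.408 and 0.219 TPM untreated and 12.9, 14.6 and 9.75 TPM treated, the largest stable rise in log2 units (3.47 ± 0.24 SE, limma adjusted p = 0.00236), and Gkn1, a stomach peptide, went from 0, 0.0776 and 0.0798 TPM to 3.43, 2.8 and 3.26 TPM (1.98 ± 0.22 SE, limma adjusted p = 0.0085). Both are genes of gastric epithelium, and the remaining called member of the 7 gut-type genes fell. That was Reg3g, an antibacterial lectin, at 3.56, 4.99 and 8.94 TPM in the untreated libraries and listed at 0 in every treated one (limma adjusted p = 0.00987). Dio2, the deiodinase that activates thyroid hormone inside cells, stood at 2.11, 2.27 and 1.78 TPM untreated and 23.7, 32.9 and 28.3 TPM treated (3.25 ± 0.18 SE, limma adjusted p = 0.00203). The apolipoprotein gene Apoc4 stood at 0.41, 0.738 and 0.199 TPM untreated and 6.81, 14 and 11.8 TPM treated (3.0 ± 0.30 SE, limma adjusted p = 0.00641), and its neighbour Apoc2 at 5.61, 9.9 and 6.82 TPM untreated and 30, 35.5 and 35.2 TPM treated (2.06 ± 0.21 SE, limma adjusted p = 0.00641). Apoe, in the same cluster and far more abundant, stood at 1139.5, 2282.2 and 1174.9 TPM untreated and 2278, 3800.8 and 3540.1 TPM treated and was not called (1.11 ± 0.30 SE, limma adjusted p = 0.0687).

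Jaml, a junctional adhesion molecule of leukocytes, stood at 10.2, 11.7 and 9.56 TPM untreated and 35, 56.5 and 48.5 TPM treated (2.03 ± 0.20 SE, limma adjusted p = 0.00641). Fgf1, the acidic fibroblast growth factor, stood at 8.46, 5.86 and 3.93 TPM untreated and 22.4, 25.9 and 31.8 TPM treated (2.00 ± 0.26 SE, limma adjusted p = 0.013). Stra6, the receptor that takes up retinol, stood at 22.3, 20.9 and 17.7 TPM untreated and 103, 74.3 and 73.7 TPM treated (1.97 ± 0.17 SE, limma adjusted p = 0.00527), and the zinc finger gene Zfp967 at 1.17, 1.38 and 1.08 TPM untreated and 9.74, 7.79 and 9.87 TPM treated (2.19 ± 0.19 SE, limma adjusted p = 0.00579). All 4 were stable rises, so by definition their treated libraries lay above every untreated one. Stra6 was the single rise among 17 retinoic acid genes, of which Crabp1, the cellular binding protein, fell from 249, 67.9 and 288 TPM to 13.4, 19 and 21.4 TPM (−3.20 ± 0.51 SE, limma adjusted p = 0.0183), as did Rarres2, the chemerin gene, at 235, 351 and 389 TPM untreated and 72.1, 84.2 and 135 TPM treated (−1.75 ± 0.27 SE, limma adjusted p = 0.0173). The call of Crabp1 ended without pre_SC 1 or 3 or post_SC 1 (adjusted p = 0.0564 to 0.0717), and that of Rarres2 without pre_SC 2 or 3 (adjusted p = 0.0648 and 0.0736). Pre_SC replicate 2 was the lowest untreated library for Crabp1, as it was for Mmp3, Mmp10 and Mmp13.

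**Figure D4:**
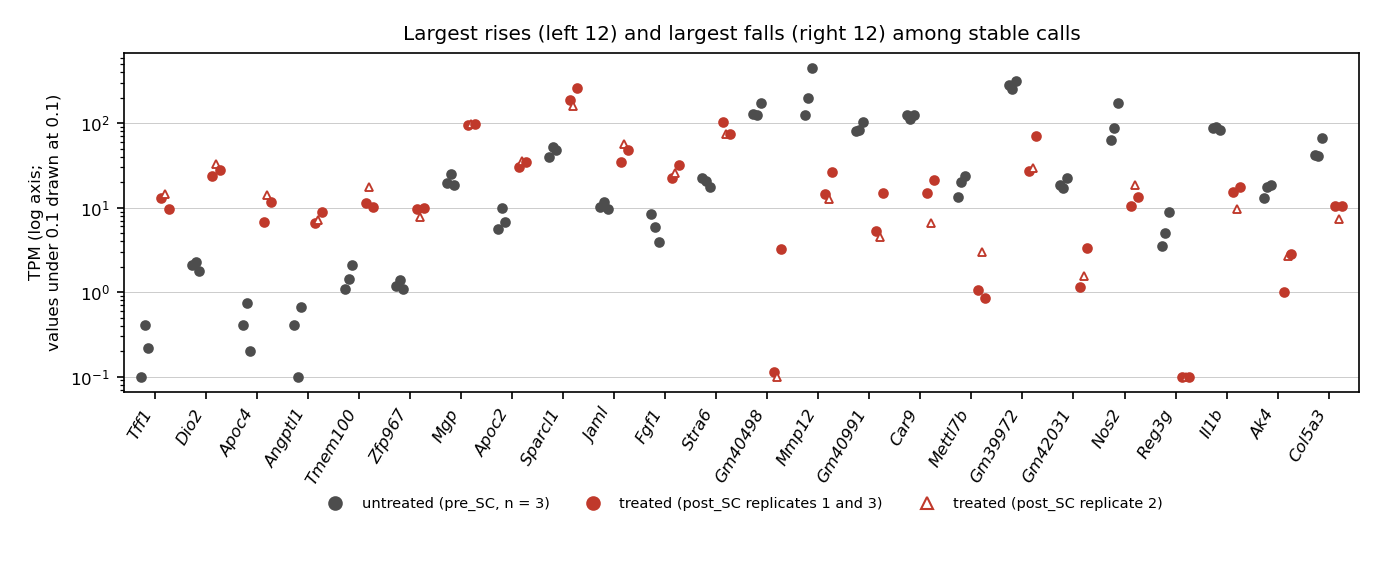
TPM (log axis, values under 0.1 drawn at 0.1) in each library of the 12 largest rises and the 12 largest falls among stable calls with a mean of at least 5 TPM in the higher group, with untreated tumors in grey, treated tumors in red and post_SC replicate 2 as an open triangle. In every gene the grey and red points, post_SC replicate 2 included, are apart, as the definition of a stable call requires.

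Some genes that hormones and fasting are known to raise rose, where 2.66% of all genes rose. Of 15 thyroid, steroid and glucocorticoid response genes, 3 rose and none fell, with a median of 1.00 (0.61 without post_SC 3) and 1, 1, 1, 6, 3 and 2 called with 1 library left out. Besides Dio2 these were Tsc22d3 (GILZ), a glucocorticoid-induced leucine zipper protein, at 42.1, 43.8 and 60.1 TPM untreated and 94.1, 167 and 193 TPM treated (1.57 ± 0.27 SE, limma adjusted p = 0.0229), and Depp1, a FOXO- and hormone-induced gene, at 3.73, 3.73 and 5.81 TPM untreated and 15.5, 93.4 and 56.9 TPM treated (3.07 ± 0.58 SE, limma adjusted p = 0.0296). Sgk1, another glucocorticoid target, had overlapping groups (0.34 ± 0.28 SE, limma adjusted p = 0.463). Of 23 FOXO targets and insulin signalling genes, 4 rose and none fell, with a median of 0.66, which was 0.40 without post_SC replicate 2 (0, 0, 1, 2, 3 and 2 called with 1 library left out). Igfbp3, a binding protein for insulin-like growth factors, stood at 152, 144 and 110 TPM untreated and 320, 219 and 333 TPM treated (1.09 ± 0.20 SE, limma adjusted p = 0.0254). Txnip, an inhibitor of glucose uptake, stood at 229, 264 and 70.1 TPM untreated and 244, 612 and 505 TPM treated and was not called (1.38 ± 0.53 SE, limma adjusted p = 0.15). The call of Tsc22d3 ended without any untreated library (adjusted p = 0.0635 to 0.0864), and that of Depp1 without any untreated library or post_SC 3 (adjusted p = 0.0661 to 0.0932). The call of Igfbp3 ended without any untreated library or post_SC 1 or 3 (adjusted p = 0.0554 to 0.093).

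The hour of collection, with which clock genes vary, is not given by the labels. Of 17 such genes, 2 rose and 1 fell, where 2.66% of all genes rose and 4.27% fell (0, 1, 0, 0, 1 and 3 called with 1 library left out). The repressors Per2 and Bhlhe41 rose by 1.14 ± 0.23 and 1.12 ± 0.25, and Ciart, another repressor, fell by 1.08 ± 0.22 (limma adjusted p = 0.0341, 0.0423 and 0.035). The call of Per2 ended without any untreated library or post_SC 1 (adjusted p = 0.0621 to 0.109), and that of Bhlhe41 without pre_SC 1 or 3 or any treated library (adjusted p = 0.0552 to 0.115). The call of Ciart ended without any untreated library or post_SC 1 or 2 (adjusted p = 0.0607 to 0.133).

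The largest stable falls beyond those already described include 4 predicted genes known by number. Gm40498 stood at 128, 126 and 172 TPM untreated and 0.113, 0 and 3.2 TPM treated, a difference of −6.41 ± 0.51 (SE, limma adjusted p = 0.00501), the largest fall among stable calls. Gm40991 stood at 80, 84.3 and 104 TPM untreated and 5.31, 4.44 and 14.8 TPM treated (−3.46 ± 0.38 SE, limma adjusted p = 0.00806), Gm39972 at 288, 258 and 314 TPM untreated and 26.9, 29.9 and 70 TPM treated (−2.86 ± 0.33 SE, limma adjusted p = 0.00965) and Gm42031 at 18.8, 16.9 and 22.3 TPM untreated and 1.14, 1.55 and 3.35 TPM treated (−2.81 ± 0.28 SE, limma adjusted p = 0.00641). In all 4, post_SC replicate 3 kept the highest treated level. Mettl7b, a methyltransferase of lipid droplets, stood at 13.4, 20.3 and 24 TPM untreated and 1.07, 2.95 and 0.843 TPM treated (−3.0 ± 0.34 SE, limma adjusted p = 0.00949).

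Il1b, the cytokine interleukin-1 beta, was a stable fall, at 87.9, 90 and 82.4 TPM untreated and 15.5, 9.53 and 17.5 TPM treated (−2.57 ± 0.21 SE, limma adjusted p = 0.00506), and its natural antagonist Il1rn stood at 19.7, 35.4 and 55.6 TPM untreated and 6.85, 5.01 and 1.55 TPM treated (−2.82 ± 0.49 SE, limma adjusted p = 0.0228). Casp1, the protease that matures interleukin-1 beta, rose, at 60.7, 58.8 and 65.2 TPM untreated and 91.2, 94.2 and 83 TPM treated (0.53 ± 0.11 SE, limma adjusted p = 0.0349). The call of Il1rn ended without any untreated library (adjusted p = 0.0545 to 0.0833), and that of Casp1 without any untreated library or post_SC 1 or 2 (adjusted p = 0.0665 to 0.115). These were the calls among 20 genes of the interleukin-1 family and inflammasome, where 6.94% of all genes were called (1, 1, 1, 2, 3 and 4 with 1 library left out). Nos2, the inducible nitric oxide synthase of activated macrophages, was a stable fall, at 63.8, 88.3 and 176 TPM untreated and 10.4, 18.5 and 13.3 TPM treated (−2.78 ± 0.37 SE, limma adjusted p = 0.0136). Arg1, which uses the same substrate, stood at 114, 302 and 396 TPM untreated and 302, 247 and 149 TPM treated, with overlapping groups (−0.10 ± 0.46 SE, limma adjusted p = 0.911). Of 30 genes of the interleukin-6 and TNF families and NF-kB, 5 fell and none rose, where 4.27% of all genes fell (1, 2, 1, 2, 5 and 5 called with 1 library left out). Lif, a cytokine of the interleukin-6 family, was among them, at 47.1, 42 and 53.8 TPM untreated and 17.5, 19.4 and 22.7 TPM treated (−1.22 ± 0.15 SE, limma adjusted p = 0.0118), while Rela, a subunit of NF-kB, stood at 99.2, 105 and 104 TPM untreated and 101, 107 and 114 TPM treated (0.06 ± 0.10 SE, limma adjusted p = 0.708). The call of Lif ended without pre_SC 1 or 3 (adjusted p = 0.0545 and 0.0557).

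Among chemokines and their receptors, 3 of 23 CXC and 1 of 22 CC genes fell and none rose, where 4.27% of all genes fell. The number called with 1 library left out was 1, 0, 1, 1, 4 and 4 for CXC and 0, 0, 0, 2, 2 and 1 for CC genes. Every treated library lay below the untreated range for 9 CXC and 4 CC genes, against 18.7% of all genes. It lay above that range for 1 gene of each list, against 16.0%. Cxcl10, which draws T cells through CXCR3, stood at 182, 141 and 120 TPM untreated and 52.4, 74.1 and 47.2 TPM treated (−1.34 ± 0.21 SE, limma adjusted p = 0.0181), and Cxcl16 at 242, 209 and 205 TPM untreated and 141, 146 and 138 TPM treated (−0.62 ± 0.10 SE, limma adjusted p = 0.0217). Pf4, the platelet factor that tumor macrophages also make, stood at 17.5, 40.5 and 68.7 TPM untreated and 4.26, 4.25 and 2.66 TPM treated (−3.01 ± 0.45 SE, limma adjusted p = 0.017). Ccl2, the main attractant of monocytes, stood at 22.5, 27.9 and 24.7 TPM untreated and 14.2, 9 and 8.08 TPM treated (−1.22 ± 0.22 SE, limma adjusted p = 0.0256), and Csf1, the growth factor of macrophages, at 105, 86.1 and 79.5 TPM untreated and 54.6, 46 and 36.2 TPM treated (−0.98 ± 0.18 SE, limma adjusted p = 0.0271). In each of the 5 the groups did not overlap. The call of Cxcl10 ended without any untreated library or post_SC 1 (adjusted p = 0.0518 to 0.067), and that of Cxcl16 without any untreated library or post_SC 1 (adjusted p = 0.0518 to 0.0805). The call of Pf4 ended without pre_SC 2 (adjusted p = 0.0611), and that of Ccl2 without any untreated library (adjusted p = 0.0763 to 0.101). The call of Csf1 ended without any untreated library (adjusted p = 0.0794 to 0.0905). Ccl5 stood at 104, 124 and 104 TPM untreated and 97, 164 and 85 TPM treated, with a difference of 0.00 ± 0.24.

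Some genes of monocytes and neutrophils were called, where 2.66% of all genes rose and 4.27% fell. The summed level of 14 classical monocyte genes was 769, 724 and 864 TPM in the untreated and 413, 445 and 407 TPM in the treated libraries, without overlap. Of the 13 tested, 1 rose and 1 fell, 8 were below 0 and the median was −0.45 (−0.07 without post_SC 3). Much of the fall in this sum was in Ly6c2. Ly6c2, a surface protein of inflammatory monocytes, was a stable fall, at 358, 369 and 478 TPM untreated and 98.7, 96 and 160 TPM treated (−1.78 ± 0.22 SE, limma adjusted p = 0.0106), and since Ly6c1 is a near-identical copy its value is uncertain. Chil3 (Ym1), on the same monocyte list, rose, at 0.389, 1.96 and 4.09 TPM untreated and 28.1, 19.7 and 11.9 TPM treated (2.84 ± 0.49 SE, limma adjusted p = 0.0228). Of 22 mature neutrophil genes, 3 fell and none rose, with a median of −0.99 and 2, 0, 1, 1, 1 and 1 called with 1 library left out, and the summed level was 573, 863 and 822 TPM in the untreated and 380, 353 and 384 TPM in the treated libraries. The sum over the genes of secondary and tertiary neutrophil granules overlapped between the groups, at 2406, 3940 and 2516 TPM and 3486, 2862 and 3476 TPM. Lcn2, which the carcinoma list shares, made up 770, 1784.9 and 902 TPM and 1655.1, 1466.2 and 2531.5 TPM of it. Of the 17 genes tested, 1 rose and 3 fell, 13 were below 0 and the median was −0.64, with 0, 0, 3, 0, 4 and 2 called with 1 library left out. Clec4d, a lectin of neutrophils and monocytes, stood at 6.06, 10.4 and 11.8 TPM untreated and 1.88, 2.4 and 3.81 TPM treated (−1.48 ± 0.30 SE, limma adjusted p = 0.033). The calprotectin chain S100a8 stood at 11.2, 71.5 and 70.1 TPM untreated and 15, 12.9 and 21.6 TPM treated, with pre_SC replicate 1 below every treated library (−1.21 ± 0.65 SE, limma adjusted p = 0.266). Its partner S100a9 stood at 39.5, 126 and 139 TPM untreated and 25, 18.9 and 32.7 TPM treated, without overlap but not called (−1.79 ± 0.46 SE, limma adjusted p = 0.0606). The call of Chil3 ended without pre_SC 1 or 2 or post_SC 1 (adjusted p = 0.0625 to 0.0791), and that of Clec4d without any untreated library or post_SC 1 or 2 (adjusted p = 0.0557 to 0.124).

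Of 24 tumor macrophage genes, 1 rose and 2 fell, where 2.66% of all genes rose and 4.27% fell. Their median was −0.10 (−0.23 to 0.23 with 1 library left out), and 1, 1, 1, 3, 3 and 3 were called with 1 library left out. Mertk, the receptor with which macrophages take up dying cells, stood at 2.13, 3.82 and 3.79 TPM untreated and 9.03, 13.8 and 16.7 TPM treated, a difference of 1.73 ± 0.28 (SE, limma adjusted p = 0.0192). The call of Mertk ended without any untreated library (adjusted p = 0.0594 to 0.0703). The complement chain C1qa stood at 588, 758 and 623 TPM untreated and 933, 1043.1 and 781 TPM treated, above the untreated range in every treated library but not called (0.48 ± 0.14 SE, limma adjusted p = 0.0847), and the receptor Csf1r had overlapping groups (0.17 ± 0.20 SE, limma adjusted p = 0.603). Spp1, the osteopontin of tumor cells and macrophages, stood at 2484.6, 1993.8 and 2567.3 TPM untreated and 1504.2, 653 and 1258.1 TPM treated and was not called (−1.12 ± 0.29 SE, limma adjusted p = 0.0616).

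Interferon response genes stood lower, and more of them were called without post_SC replicate 2. Of 24 interferon gamma GTPases and targets, 7 fell and none rose, against 4.27% of all genes that fell. All 24 had a difference below 0, and the median was −0.98. Without post_SC replicate 2, 16 fell, against 4.01% of all genes in that fit, with a median of −1.23. The number called with 1 library left out was 0, 2, 0, 1, 16 and 4. Of 30 type I interferon genes, 1 fell, against 4.27% of all genes, with all 30 below 0 and a median of −0.52. In 6 of them every treated library lay below the untreated range, against 18.7% of all genes. Without post_SC replicate 2, 15 fell, with a median of −0.95, while the median was −0.25 without post_SC replicate 3, and 0, 0, 0, 0, 15 and 1 were called with 1 library left out.

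Irf1, a transcription factor that interferon gamma induces, stood at 336, 283 and 323 TPM untreated and 155, 187 and 197 TPM treated, a difference of −0.80 ± 0.13 (SE, limma adjusted p = 0.0178). For other members post_SC replicate 2 reached or approached the untreated range. Igtp, a GTPase that acts against intracellular parasites, stood at 395, 311 and 426 TPM untreated and 122, 256 and 106 TPM treated (−1.32 ± 0.31 SE, limma adjusted p = 0.0497). Irgm1, a related GTPase, stood at 351, 290 and 315 TPM untreated and 147, 296 and 126 TPM treated and was not called (−0.84 ± 0.29 SE, limma adjusted p = 0.12); without post_SC replicate 2 its difference was −1.22 (adjusted p = 0.0128, within 0.0128 to 0.266 with 1 library left out). Oasl2, of the 2′-5′ oligoadenylate synthetase family, stood at 568, 564 and 428 TPM untreated and 303, 712 and 125 TPM treated, so that replicate 2 lay above all other libraries (−0.78 ± 0.54 SE, limma adjusted p = 0.381). The call of Irf1 ended without pre_SC 1 or 3 (adjusted p = 0.0735 and 0.0819), and that of Igtp without any untreated library or post_SC 1 or 3 (adjusted p = 0.0955 to 0.159). Ifng, the gene of interferon gamma itself, stood at 4.38, 2.91 and 4.57 TPM untreated and 1.78, 3.33 and 1.55 TPM treated (−0.64 ± 0.28 SE, limma adjusted p = 0.184). The T cell sum of post_SC replicate 2 (316 TPM) was also within the untreated range (309 to 327 TPM), unlike those of the other treated libraries (220 and 219 TPM), and its part in these values was not tested.

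**Figure D5:**
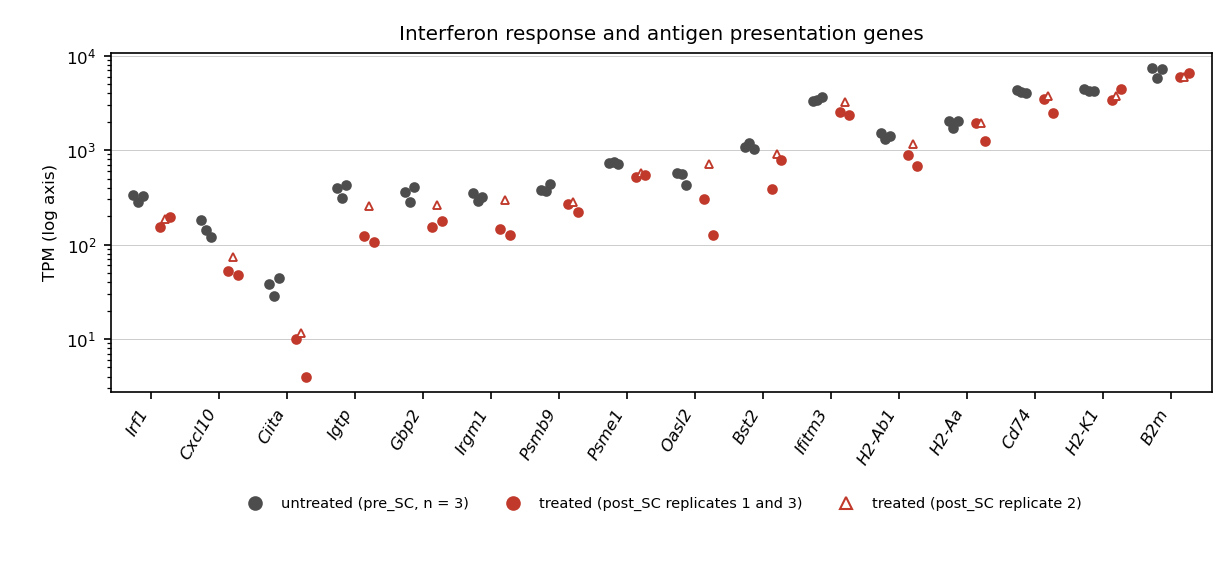
TPM (log axis) of 16 interferon response and antigen presentation genes in each library, with untreated tumors in grey, treated tumors in red and post_SC replicate 2 as an open triangle. Irf1, Cxcl10 and Ciita lie below the untreated libraries in every treated one. The triangle lies within the untreated range in Irgm1 and above it in Oasl2, with the other treated libraries below that range. In H2-Aa and B2m the triangle lies within the untreated range, but so does post_SC replicate 1, and in B2m also replicate 3.

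Some genes of antigen presentation fell, where 4.27% of all genes fell. Of 11 MHC class II genes, 3 fell and none rose, with a median of −0.68 and 0, 0, 0, 1, 4 and 4 called with 1 library left out. Ciita, the master activator of the class, stood at 38.5, 28.3 and 44.3 TPM untreated and 9.93, 11.6 and 4 TPM treated (−2.08 ± 0.35 SE, limma adjusted p = 0.022), and H2-DMb2, a chain of the peptide loader, at 302, 228 and 327 TPM untreated and 159, 161 and 110 TPM treated (−0.99 ± 0.19 SE, limma adjusted p = 0.0316). H2-Aa, a peptide-presenting chain, stood at 2047.9, 1709.6 and 2042.3 TPM untreated and 1949.6, 1933.3 and 1254.2 TPM treated, with overlapping groups (−0.20 ± 0.18 SE, limma adjusted p = 0.511). Of 21 class I genes, 2 fell, Psmb9 of the immunoproteasome (−0.62 ± 0.13 SE, limma adjusted p = 0.0334) and the proteasome activator Psme1 (−0.44 ± 0.09 SE, limma adjusted p = 0.0339), and 6 fell without post_SC replicate 2 (0, 0, 0, 0, 6 and 0 called with 1 library left out). The heavy chain H2-K1 stood at 4461.6, 4255.9 and 4269.4 TPM untreated and 3412.2, 3780.5 and 4446 TPM treated and was not called (−0.17 ± 0.12 SE, limma adjusted p = 0.38), and neither was the light chain B2m, at 7398.4, 5761.7 and 7200.2 TPM untreated and 5947.7, 5992.1 and 6545.5 TPM treated (−0.13 ± 0.12 SE, limma adjusted p = 0.508). The H2 genes include near-identical copies. The call of Ciita ended without any untreated library (adjusted p = 0.0601 to 0.0911), and that of H2-DMb2 without any untreated library or post_SC 1 (adjusted p = 0.0534 to 0.118). The call of Psmb9 ended without any untreated library or post_SC 1 or 3 (adjusted p = 0.0521 to 0.128), and that of Psme1 without any untreated library or post_SC 1 or 3 (adjusted p = 0.0544 to 0.12).

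Lymphocyte genes held few calls, where 6.94% of all genes were called. Cd8a, the co-receptor of cytotoxic T cells, stood at 12.2, 7.26 and 6.38 TPM untreated and 11.2, 24.2 and 12.1 TPM treated, with overlapping groups (0.77 ± 0.34 SE, limma adjusted p = 0.188). Of 19 T cell genes, 1 fell, Thy1, which fibroblasts also make (−0.85 ± 0.10 SE, limma adjusted p = 0.0104), and the median was 0.14 (−0.23 to 0.28 with 1 library left out). Of 20 genes of cytotoxic granules and NK cells, 1 fell, Gzmc, at 67.1, 82.2 and 50.7 TPM untreated and 20.8, 13.3 and 20 TPM treated (−1.83 ± 0.23 SE, limma adjusted p = 0.0118), with a median of −0.70. Of these 20, 9 lay below and 1 above the untreated range in every treated library, against 18.7% and 16.0% of all genes. The list's summed level was 374, 801 and 404 TPM untreated and 190, 225 and 164 TPM treated, without overlap. Gzmb stood at 63.7, 77.3 and 126 TPM untreated and 38, 45.1 and 15.6 TPM treated and was not called (−1.48 ± 0.41 SE, limma adjusted p = 0.0702). Granzyme genes of this cluster resemble each other closely, which makes their values uncertain. Tnfrsf9 (4-1BB), a receptor of activated T cells, was a stable fall, at 23.8, 37.9 and 27.5 TPM untreated and 8.09, 9.34 and 8.45 TPM treated (−1.65 ± 0.19 SE, limma adjusted p = 0.00991), and Cd274 (PD-L1) stood at 54.1, 38.4 and 68.2 TPM untreated and 25.3, 41.5 and 34.7 TPM treated and was not called (−0.64 ± 0.25 SE, limma adjusted p = 0.153). The call of Thy1 ended without pre_SC 1 or 3 (adjusted p = 0.0537 and 0.0555), and that of Gzmc without pre_SC 1 (adjusted p = 0.0545).

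Genes of sterol synthesis stood lower. All 22 genes of cholesterol synthesis and uptake had a difference below 0, with a median of −0.83 (−0.71 without post_SC replicate 2). Of them 6 fell, against 4.27% of all genes. In 13 every treated library lay below the untreated range, against 18.7% of all genes. The number called with 1 library left out was 0, 2, 0, 4, 5 and 4. Srebf2, the transcription factor that controls these genes, stood at 75.3, 58.1 and 80.2 TPM untreated and 33.9, 19.8 and 25.7 TPM treated (−1.41 ± 0.22 SE, limma adjusted p = 0.0173). Sqle, the squalene epoxidase, stood at 56.8, 41.7 and 60.4 TPM untreated and 22.6, 11.6 and 13.4 TPM treated (−1.71 ± 0.26 SE, limma adjusted p = 0.017), and Fdps, which makes farnesyl pyrophosphate, at 135, 118 and 151 TPM untreated and 64.1, 30.2 and 32.2 TPM treated (−1.73 ± 0.28 SE, limma adjusted p = 0.0186). The call of Srebf2 ended without pre_SC 1 or 3 (adjusted p = 0.0678 and 0.0744), and that of Sqle without pre_SC 1 or 3 (adjusted p = 0.0678 and 0.0744). The call of Fdps ended without any untreated library (adjusted p = 0.0607 to 0.0794). Srebf1, the related factor of fatty acid synthesis, stood at 64.5, 60.5 and 53.7 TPM untreated and 62.7, 78.7 and 142 TPM treated and was not called (0.57 ± 0.28 SE, limma adjusted p = 0.224), while its target Fasn, the fatty acid synthase, stood at 79.6, 78.8 and 75.8 TPM untreated and 46.7, 48.8 and 48.2 TPM treated (−0.69 ± 0.10 SE, limma adjusted p = 0.017). The call of Fasn ended without any untreated library (adjusted p = 0.0611 to 0.0744). The sterol element, searched as TCACNCCAC on both strands, was found in 1 of 15 promoters of the cholesterol list (6.67%), against 1.24% of all promoters, and in none of the 4 members that fell for which a promoter was searched.

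Some genes of protein folding in the endoplasmic reticulum fell and some of the ribosome rose. Of 23 genes of the unfolded protein response, 6 fell and none rose, against 4.27% of all genes that fell (0, 2, 0, 7, 4 and 4 called with 1 library left out). Hspa5 (BiP), the main chaperone there, stood at 884, 799 and 909 TPM untreated and 566, 501 and 565 TPM treated (−0.67 ± 0.10 SE, limma adjusted p = 0.017), and Calr (calreticulin) at 1074.8, 1196.9 and 1190 TPM untreated and 753, 564 and 575 TPM treated (−0.88 ± 0.13 SE, limma adjusted p = 0.017). Xbp1 and Atf4, transcription factors of the response, had overlapping groups (0.24 ± 0.22 SE, limma adjusted p = 0.505 and −0.16 ± 0.13 SE, limma adjusted p = 0.459). The call of Hspa5 ended without pre_SC 1 or 3 (adjusted p = 0.0683 and 0.0814), and that of Calr without any untreated library (adjusted p = 0.0608 to 0.0744). Of 32 proteins of the small ribosomal subunit, 7 rose and none fell, against 2.66% of all genes that rose, with a median of 0.19. In 19 every treated library lay above the untreated range, against 16.0% of all genes. Of 45 of the large subunit, 4 rose and none fell, with a median of 0.11 (0.19 without post_SC 2), and 0, 0, 0, 2, 8 and 2 and 0, 0, 0, 0, 6 and 1 were called with 1 library left out. Rps12 stood at 4663.8, 4941.8 and 5191 TPM untreated and 9248.1, 7409 and 7350.4 TPM treated (0.69 ± 0.12 SE, limma adjusted p = 0.0223) and Rps24 at 3723.5, 3619.8 and 3813 TPM untreated and 6070.4, 5405.8 and 5533.8 TPM treated (0.61 ± 0.09 SE, limma adjusted p = 0.017). The call of Rps12 ended without any untreated library (adjusted p = 0.0799 to 0.0853), and that of Rps24 without any untreated library (adjusted p = 0.0611 to 0.0744). Ribosomal protein genes have many processed copies in the genome, which makes their values uncertain.

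Some genes of the carcinoma epithelium lists were called, where 2.66% of all genes rose and 4.27% fell. Of 25 simple epithelial genes, 2 fell and none rose, with a median of −0.20 (−0.09 without pre_SC 3 and −0.08 without post_SC 1), and 0, 1, 0, 0, 2 and 1 were called with 1 library left out. These were Ovol1, a repressor of mesenchymal genes (−0.98 ± 0.21 SE, limma adjusted p = 0.0385), and Rab25, an epithelial trafficking GTPase (−0.51 ± 0.10 SE, limma adjusted p = 0.0303). Of 15 regulators of epithelial-mesenchymal transition, 2 fell (0, 1, 0, 2, 2 and 1 called with 1 library left out). Snai1 (Snail), which represses E-cadherin, stood at 60.4, 65.7 and 58.9 TPM untreated and 33.7, 32.7 and 37.5 TPM treated (−0.81 ± 0.12 SE, limma adjusted p = 0.0163), and Twist2 at 21.1, 12.7 and 37.7 TPM untreated and 6.34, 2.7 and 3.6 TPM treated (−2.18 ± 0.41 SE, limma adjusted p = 0.0283). The call of Ovol1 ended without any untreated library or post_SC 1 or 3 (adjusted p = 0.0659 to 0.154), and that of Rab25 without any untreated library or post_SC 1 or 2 (adjusted p = 0.0566 to 0.121). The call of Snai1 ended without any untreated library (adjusted p = 0.0607 to 0.0707), and that of Twist2 without pre_SC 1 or 3 or post_SC 3 (adjusted p = 0.0603 to 0.089). Vim, which encodes vimentin, stood at 1005.4, 986 and 1546.7 TPM untreated and 993, 496 and 560 TPM treated and was not called (−0.82 ± 0.28 SE, limma adjusted p = 0.117). The list of keratins and keratinizing epithelium also holds genes other than keratins, and 23 of its 24 members had a difference below 0. Its median was −0.75 (−1.26 without pre_SC 2, 0.03 without pre_SC 3 and −0.41 without post_SC 1), but 1 was called (0, 0, 0, 1, 1 and 0 with 1 library left out). In 4 members every treated library lay below the untreated range, against 18.7% of all genes. Among all 19 Krt genes tested, 15 lay below and 4 above 0. Krt14, which basal mammary cells share with skin, stood at 660, 585 and 938 TPM untreated and 291, 524 and 497 TPM treated (−0.75 ± 0.26 SE, limma adjusted p = 0.118), and Krt5 at 101, 47.4 and 249 TPM untreated and 6.3, 52.4 and 180 TPM treated, where single libraries ranged widely (−1.38 ± 1.11 SE, limma adjusted p = 0.449).

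Genes of the surrounding tissues varied with the library. None of 38 skeletal muscle genes was called with all libraries. Their differences ranged from −0.18 to 4.11 with a median of 2.12, and without post_SC replicate 2 the median was 0.89 over 32 genes, of which 2 fell. Tnni2, a fast-muscle troponin, stood at 133, 100 and 115 TPM untreated and 74, 1106.2 and 49.5 TPM treated. Its difference was 0.47 ± 1.03 (SE, limma adjusted p = 0.795) with all libraries and −0.92 (adjusted p = 0.0497) without post_SC replicate 2, the opposite sign. Adipoq, the adiponectin gene of fat cells, stood at 3.01, 12.8 and 20.8 TPM untreated and 0.0751, 13.1 and 0 TPM treated, so it was at or near 0 in post_SC replicates 1 and 3 and above 3 TPM in the other libraries. None of 16 adipocyte genes was called, with a median of −0.83 (−1.79 to −0.29 with 1 library left out), and 4 fell without post_SC replicate 2.

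Among 153 gene families formed from shared symbol stems with at least 10 members tested, the 6 with the lowest medians were Cxcl (−1.15, 11 members), Gbp (−0.91, 10 members), Krt (−0.72, 19 members, and −0.09 without pre_SC 3), Mmp (−0.60, 14 members), Car (−0.58, 11 members) and Kif (−0.50, 30 members). The families and the members named here were chosen after their values were seen. In the carbonic anhydrase family Car, 3 members fell, Car9, Car12 (−2.09) and Car13 (−1.57). Car12 was called in 5 and Car13 in 4 of the 6 fits with 1 library left out. In the kinesin family Kif, 4 fell, all motors of mitosis, Kif18b, Kif2c (−1.12), Kif20a (−1.08) and Kif22 (−0.71). Of the 6 fits with 1 library left out, Kif2c was called in 2, Kif20a in 3 and Kif22 in 1. The Gbp family of guanylate-binding proteins, induced by interferon, had 2 calls with all libraries and 7 without post_SC replicate 2, when its median was −1.21. The 6 with the highest medians were Asb (0.77, 12 members), Hoxa (0.46, 10 members), Spata (0.43, 11 members), Sox (0.41, 11 members), Tspan (0.34, 18 members) and Ndufb (0.33, 11 members). Of these 6 families, Hoxa had the only call, Hoxa6, which fell by 0.82. The median of the Asb family, which includes muscle genes, went to 0.21 without post_SC replicate 2. The 6 families at the lower end, picked by their medians, held 1 to 4 falls each, where 4.27% of all genes fell. Krt held 1 among its 19 members.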

How the data were processed

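The authors deposited a table of TPM (transcripts per 1000000 transcripts) for the 6 fat pad libraries, the unit being read from the values: each column summed to 1000000, and its low values were whole multiples of 1 step (tolerance 0.01). Read depth was not given, so no counting error could be set. Per the submitters' processing notes, GRCm38 (mm10), StringTie and fastp were used, without roles or versions. Of 17703 rows, 24 with names turned into dates and 1 repeated name were left out, and 66 hyphens in names were restored. Tables of liver tumors were not analysed here. Gene lists, members and tests were chosen with earlier results of these data known.

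Genes with a mean of at least 1 TPM were tested as log2(TPM + 1) with limma 3.58.1 in R 4.3.3 (eBayes with a mean-variance trend, Benjamini-Hochberg adjustment over all genes tested, threshold 0.05), without a block. The code was tested on simulated data. With 3 libraries against 3, an exact permutation test cannot go below p = 0.1, so none was used. Lists (84) are described by counts and medians. Genes were named by rule: in each list up to 6 stable calls, or else up to 2 calls by p, plus the 3 most abundant members, 12 largest stable rises and falls with at least 5 TPM in the higher group, and 25 set genes. Alternatives were a pseudocount of 0.1, no filter or a mean of at least 5 TPM, median-of-ratios or quantile scaling, removal of muscle genes, no trend, a replicate block, and each library left out. Promoters were taken from RefSeq (GRCm38.p6). Other steps used Python 3.11.15 with pandas 2.3.3, NumPy 2.4.6 and matplotlib 3.10.9. Values of a few list members are not reported here.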

Additional observations from a re-analysis of the deposited data

How the results depend on the processing

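With 1 library left out, the number of genes called ranged from 77 to 772, of those that rose from 26 to 272 and of those that fell from 51 to 530. The lowest counts came without pre_SC replicate 1 (77), pre_SC replicate 3 (91), pre_SC replicate 2 (191) and post_SC replicate 1 (385), and the cause was not tested. The labels give no pairing of libraries by replicate number. Deviations of same-numbered libraries from their group means correlated at 0.13, −0.16 and −0.11, against −0.26 to 0.29 for other pairs. Such deviations sum to 0 within each small group, so these values cannot tell whether a number marks a shared animal, litter or day. A fit with the number as a replicate block called 328 genes, of which 111 rose and 217 fell. Other settings kept all 3 counts within 1.5 times: 923 genes with a pseudocount of 0.1, 643 without a filter, 913 at a mean of at least 5 TPM, 923 with median-of-ratios scaling, 1002 with quantile normalization, 959 with muscle genes removed and 658 without a trend. Among the 377 named genes, 1 reversed with a call, Tnni2, at −0.92 (adjusted p = 0.0497) without post_SC replicate 2, the library with muscle RNA, within a range of −0.92 to 1.31 with 1 library left out. Of the named genes, 123, 99 and 117 lost their call without pre_SC replicates 1, 2 and 3, 66, 30 and 41 without post_SC replicates 1, 2 and 3, 68 with the replicate block, 36 without a trend, 34 without a filter, 10 with quantile normalization, 9 with median-of-ratios scaling and 2 with a pseudocount of 0.1. The unknown depth limits what can be said of genes near 1 TPM.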
